A study of Mus musculus with 24 samples.

Results

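The enzymes of oxidative phosphorylation in the inner mitochondrial membrane are built from nuclear-encoded and mitochondrially encoded subunits. The results below concern the nuclear-encoded subunits of complexes I to V in the mouse left ventricle and septum. Members were all rows of the deposited count table whose symbol began with Nduf followed by a, b, c, s or v and a digit, was Sdha, Sdhb, Sdhc or Sdhd, or began with Uqcr, Atp5, or Cox4 to Cox8 followed by a letter, with a mean of at least 10 counts per library. This gave 84 of 25229 rows, from 88 rows with such a name. The other 4 rows fell under the minimum, with mean counts of 9.17 for Ndufb4c, 1.92 for Cox7b2, 1.83 for Ndufa11b and 0 for Cox8c. Just inside it were Cox6b2, at 12.92 counts, and the pseudogene Ndufs5-ps, at 25.2 counts. The members comprised 35 genes of complex I, 4 of complex II, 8 of complex III, 18 of complex IV and 17 of complex V, and 2 rows named as pseudogenes, Ndufs5-ps and Cox7c-ps1, which are left out of the counts below unless named. Ndufa4 and Ndufa4l2 carry complex I names and were counted with complex IV, where the Ndufa4 protein is known to reside. All 84 passed the filter on low counts.

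Poly-A RNA was sequenced from hearts of male C57BL/6 mice in 4 groups of 6 libraries. The surgery was transverse aortic constriction (TAC), which puts a stricture on the aortic arch so that the ventricle pumps against a higher pressure, or a sham operation, and no group carried a transgene by its labels. After 1 week the mice breathed HEPA-filtered air or air with 50 ppm benzene, a volatile aromatic pollutant, for 6 hours a day on 5 days a week over 6 weeks. The groups are Sham/Air, Sham/Benzene, TAC/Air and TAC/Benzene, and the age of the mice is not given in the sources used here.

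Complex I takes electrons from NADH and complex II takes them from succinate. Complex III passes them to cytochrome c and complex IV passes them on to oxygen, and complexes I, III and IV pump protons while they do so. Complex V, the ATP synthase, lets the protons back through and makes ATP, on which the beating heart depends for nearly all of its energy. Because every complex needs its subunits in fixed proportion, their genes are often read as a group, and many carry binding sites for nuclear respiratory factor 1 (NRF1), oestrogen-related receptors, GABP or YY1 near their start sites.

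Total counts ran from 4170660 to 14632231 per library, and Sham/Air replicate 1 had the lowest total. That library stood apart in the members. In it 22 of 82 members were at the highest level of their group and 51 at the lowest. Uqcrb was 4.97-fold above the mean of the other 5 Sham/Air libraries (3069 against 618 CPM, the count after scaling every library to 1 size) and Atp5j was 2.75-fold above it, while Atp5g2 was at 0.0532 of that mean, Uqcr11 at 0.0883 and Atp5g1 at 0.122. In all, 5 members were more than 2-fold above that mean and 27 were more than 2-fold below it. Across genes, the ratio of this library to the mean of all libraries had a rank correlation of -0.77 with the GC content of the transcript; over the other 23 libraries the value ran from -0.55 to 0.62. Counts of calls below are therefore also given without Sham/Air replicate 1, and so is any member given with its TAC fold change whose call or direction changed without it or whose fold change moved by over 1.5 times. The labels give no sequencing batch or date.

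**Figure D1:**
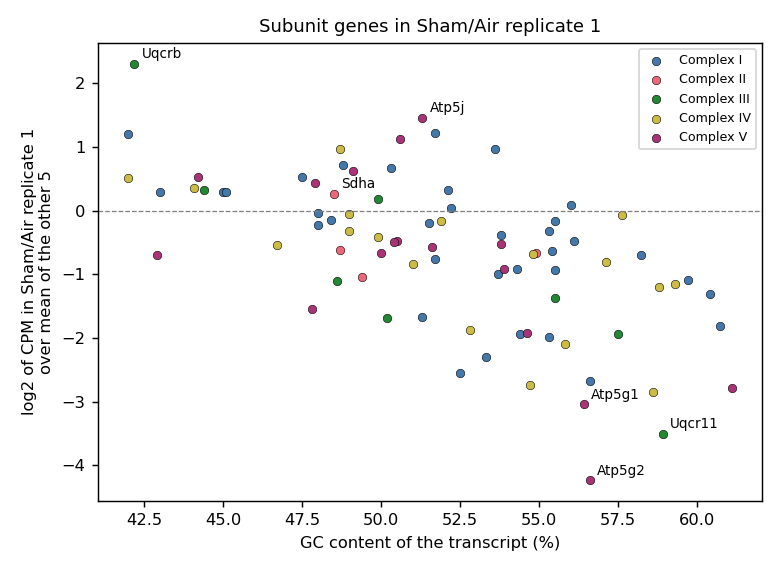
Each point is 1 of the 82 subunit genes; the horizontal axis is the GC content of its transcript in percent, and the vertical axis is the log2 ratio of its CPM in Sham/Air replicate 1 to the mean of the other 5 Sham/Air libraries, coloured by complex. Uqcrb lies highest at 2.31 and Atp5g2 lowest at -4.23, and most genes over 55% GC lie below 0.

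The question of the first comparison is how pressure overload changed these genes. Summed over its members, every complex was lower in TAC than in sham hearts in both exposures. Complex I fell from a mean of 14859 ± 1223 CPM (SD, n = 6) in Sham/Air to 11617 ± 1540 CPM in TAC/Air, a change of -21.8%, and from 15000 ± 1900 CPM in Sham/Benzene to 11614 ± 570.0 CPM in TAC/Benzene, a change of -22.6%. Complex II changed by -24.2% in air and -27.3% in benzene, complex III by -22.1% and -20.1%, complex IV by -21.5% and -24.0%, and complex V by -21.4% and -21.9%. These sums are levels of RNA and weight each gene by its own abundance.

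The sums of complexes II and V did not overlap between sham and TAC in either exposure. For complex II the 12 sham libraries ran from 3641 to 4569 CPM and the 12 TAC libraries from 2896 to 3499 CPM. Complex V ran from 21979 to 26626 CPM in Sham/Air and from 17935 to 21689 CPM in TAC/Air. In benzene it ran from 20918 to 27565 CPM in sham and from 18592 to 20109 CPM in TAC. Complex III was apart in air, at 6513 to 7473 CPM in Sham/Air against 4823 to 6273 CPM in TAC/Air, and overlapped in benzene, where Sham/Benzene replicate 3 was low at 5570 CPM. Complexes I and IV overlapped in both exposures. Without Sham/Air replicate 1, the changes in air were -23.4% for complex I, -25.7% for II, -22.3% for III, -22.9% for IV and -23.2% for V, and complex I in air no longer overlapped.

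**Figure D2:**
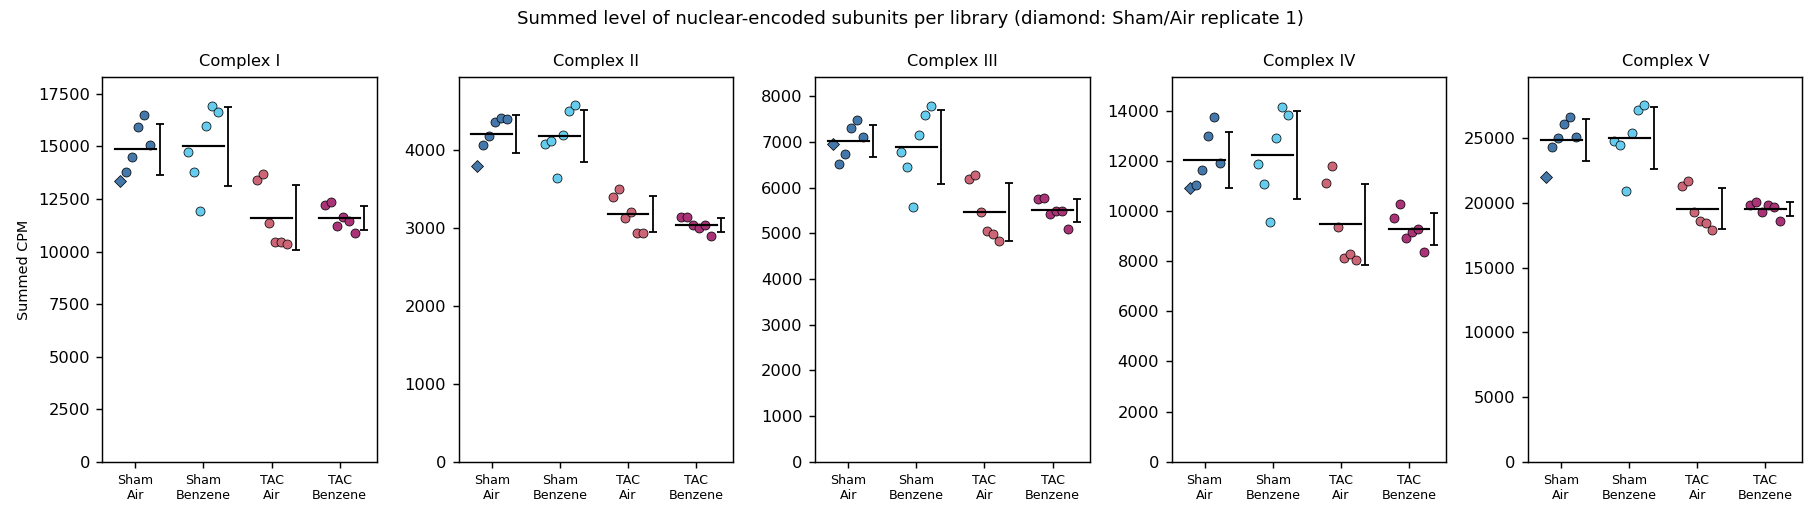
Each panel shows 1 complex; points are the 6 libraries of each group, the vertical axis is the summed CPM of the complex's nuclear-encoded subunit genes and starts at 0, lines are means and bars are 1 SD. The 12 TAC libraries of complex II lie between 2896 and 3499 CPM, below all 12 sham libraries.

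Gene by gene, the falls were small and in 1 direction. In air, 31 of 82 members were lower in TAC/Air than in Sham/Air and 0 were higher by edgeR's quasi-likelihood test at an adjusted p under 0.05, where 7.35% of all 13571 genes tested were called lower and 8.81% higher. In benzene, 33 of 82 members were lower in TAC/Benzene than in Sham/Benzene and 0 were higher, where 7.97% of all genes were called lower and 8.67% higher. The median log2 fold change of the members was -0.32 in air and -0.36 in benzene, and that of all genes tested was -0.013 and -0.005. In air 75 of 82 fold changes were below 0, and in benzene 78 of 82.

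By complex, the members called lower in air were 15 of 35 in complex I, 3 of 4 in II, 2 of 8 in III, 4 of 18 in IV and 7 of 17 in V. In benzene they were 14, 3, 2, 7 and 7. The median log2 fold changes of the complexes were close to each other: in air -0.34 for complex I, -0.28 for II, -0.31 for III, -0.29 for IV and -0.34 for V, and in benzene -0.39, -0.44, -0.34, -0.35 and -0.35. Whether complexes differ was not tested.

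Leaving out Sham/Air replicate 1 raised the calls to 49 of 82 lower in air, against 11.1% of all genes, and to 48 of 82 in benzene, against 13.2% of all genes, with 0 higher. In air 29 of the 31 were kept and Ndufc1 and Atp5md were lost; in benzene all 33 were kept. The calls in benzene moved although none of the 12 libraries compared there was left out and no member's fold change shifted by more than 0.004. That comparison shares the filter, the scaling and the estimate of the spread with the others, while p-values are adjusted within each comparison. The parts of these steps in the shift were not tested. In air 5 members that had not passed turned direction, and of the others 7 called members and 24 that had not passed moved by over 1.5 times. By complex the counts without it were 26, 3, 6, 7 and 7 in air and 24, 3, 5, 7 and 9 in benzene. Members whose 6 TAC libraries were all below all 6 sham libraries numbered 10 in air, against 3.71% of all genes, and 26 in benzene, against 6.31% of all genes. Sham/Air replicate 1 was the lowest of its group in 51 of 82 members. The number in air was not counted without that library, so the 10 and 26 do not compare the exposures.

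**Figure D3:**
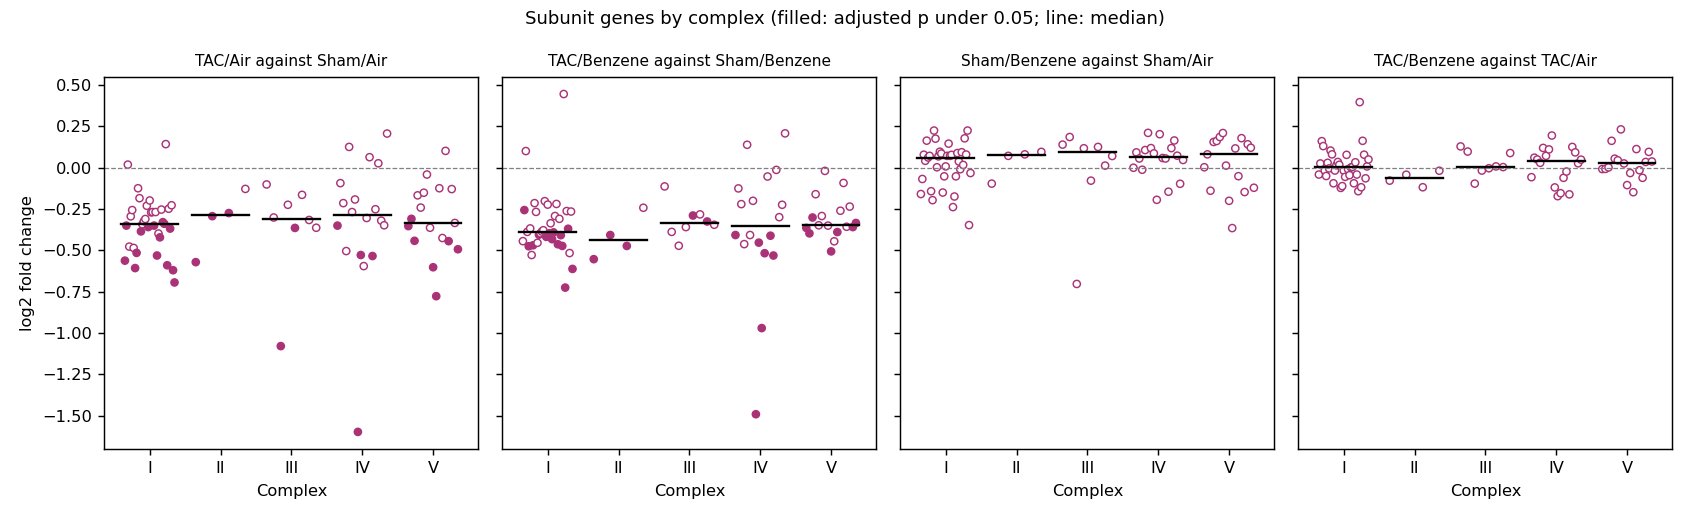
Points are subunit genes grouped by complex, in alphabetical order within a complex; the vertical axis is the log2 fold change of each comparison, filled points passed an adjusted p of 0.05 and lines are medians. The TAC panels have 31 and 33 filled points, all below 0, and the benzene panels have 0.

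In complex I the calls fell on the NADH-oxidising arm, the quinone arm and the accessory subunits alike. Ndufs1 is the large iron-sulphur core subunit of the arm that takes up electrons. It ranged from 1008 to 1347 CPM with a median of 1131 CPM in Sham/Air and from 786 to 907 CPM with a median of 852 CPM in TAC/Air. In Sham/Benzene it ranged from 988 to 1196 CPM with a median of 1100.4 CPM, and in TAC/Benzene from 759 to 816 CPM with a median of 799.9 CPM. The groups did not overlap in either exposure, and the log2 fold changes were -0.42 ± 0.07 (SE; adjusted p = 0.000136) in air and -0.46 ± 0.07 (SE; adjusted p = 3.46e-05) in benzene.

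Ndufa9, an accessory subunit beside the quinone site, was lower after TAC in all libraries. Its range was from 649.8 to 688 CPM with a median of 661 CPM in Sham/Air and from 468 to 561 CPM with a median of 502 CPM in TAC/Air. The range in Sham/Benzene was from 605 to 699 CPM with a median of 679 CPM, and in TAC/Benzene from 486 to 517 CPM with a median of 505 CPM. TAC lay below sham in both exposures without overlap, by -0.39 ± 0.06 (SE; adjusted p = 0.000106) in air and -0.41 ± 0.06 (SE; adjusted p = 4.73e-05) in benzene on the log2 scale.

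Ndufa10, an accessory subunit of the membrane arm, also fell without overlap, by -0.35 ± 0.07 (SE; adjusted p = 0.000901) in air and -0.26 ± 0.07 (SE; adjusted p = 0.0125) in benzene. Ndufs3, a core subunit of the quinone module, ranged from 329 to 441 CPM with a median of 418 CPM in Sham/Benzene and from 283 to 319.9 CPM with a median of 304 CPM in TAC/Benzene. In air its ranges overlapped because Sham/Air replicate 1 was low at 313 CPM, and the fold changes were -0.33 ± 0.09 (SE; adjusted p = 0.00859) in air and -0.41 ± 0.09 (SE; adjusted p = 0.00117) in benzene. Other calls shared by both exposures included Ndufv3 (-0.70 in air, -0.61 in benzene) and Ndufs6 (-0.59 and -0.73), an accessory subunit that enters late in assembly. The flavin-bearing subunit Ndufv1 did not pass in either exposure, at -0.23 ± 0.26 (SE; adjusted p = 0.613) in air and -0.52 ± 0.26 (SE; adjusted p = 0.205) in benzene; without Sham/Air replicate 1 it passed in both, at -0.45 and -0.52. Ndufa11, at 0.02 and 0.10, and Ndufs5, at 0.14 and 0.45, did not pass and were the complex I members above 0 in both exposures. In air they were at -0.08 and -0.01 without Sham/Air replicate 1, where no complex I member was then above 0, and with offsets for GC content and length Ndufa11 was at -0.16 in air. Ndufs5 was among the lowest members per length, at 16.7 CPM per kilobase, and its counts are uncertain, as a near-identical copy can take or lose its reads; the row Ndufs5-ps stood at 1.15 to 9.94 CPM over all libraries.

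Complex II is the enzyme of the citric acid cycle that sits in the membrane. Its 4 genes are the flavoprotein Sdha that oxidises succinate, the iron-sulphur subunit Sdhb, and the membrane anchors Sdhc and Sdhd, and 3 of the 4 fell in both exposures. Sdha ranged from 1948 to 2437 CPM with a median of 2051 CPM in Sham/Air and from 1301 to 1504 CPM with a median of 1426 CPM in TAC/Air. It ranged from 1797 to 2121 CPM with a median of 1945 CPM in Sham/Benzene and from 1269.7 to 1385 CPM with a median of 1346 CPM in TAC/Benzene. The lowest sham library lay above the highest TAC library in each exposure, and the log2 fold changes were -0.57 ± 0.07 (SE; adjusted p = 1.19e-06) and -0.55 ± 0.07 (SE; adjusted p = 1.56e-06).

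Sdhb changed by -0.29 ± 0.10 (SE; adjusted p = 0.0411) in air and -0.41 ± 0.10 (SE; adjusted p = 0.00409) in benzene. Sdhc changed by -0.28 ± 0.09 (SE; adjusted p = 0.0343) in air and -0.47 ± 0.09 (SE; adjusted p = 0.000336) in benzene. For both, Sham/Air replicate 1 was low, at 723 CPM for Sdhb and 361 CPM for Sdhc, below every TAC/Air library. Without that library the fold changes in air were -0.39 and -0.36, and the benzene groups did not overlap. Sdhd did not pass, at -0.13 ± 0.15 (SE; adjusted p = 0.631) and -0.24 ± 0.15 (SE; adjusted p = 0.34), nor without that library, at -0.26 in air.

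Sdha and Sdhd share an element of NRF1 before their start sites; Sdha passed after TAC and Sdhd did not, so both stretches are shown. They come from the RefSeq table of promoters on GRCm38.p6, a later build than the mm9 of the submitters' processing notes; the capitals mark matches to GCGCA, any base and GCGC, read on both strands, and both genes lie on the minus strand. The Sdha stretch is chr13:74350241-74350353, from 113 bases before the start to the base before it, and holds 3 matches. The Sdhd stretch is chr9:50603904-50603943 and holds 1.
Sdha: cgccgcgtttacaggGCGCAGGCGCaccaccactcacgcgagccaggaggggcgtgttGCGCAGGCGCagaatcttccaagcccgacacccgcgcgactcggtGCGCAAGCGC
Sdhd: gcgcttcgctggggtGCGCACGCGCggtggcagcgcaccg

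Complex III had 2 of 8 members called in each exposure. Uqcrc2, a core subunit of the matrix face, ranged from 1277 to 1714 CPM with a median of 1375 CPM in Sham/Air and from 1026 to 1293 CPM with a median of 1073 CPM in TAC/Air. In benzene it ranged from 1188 to 1509 CPM with a median of 1353 CPM in sham and from 1035 to 1170.3 CPM with a median of 1083 CPM in TAC. The benzene groups did not overlap and the air groups did, with TAC/Air replicate 4 high at 1293 CPM, and the fold changes were -0.36 ± 0.08 (SE; adjusted p = 0.00257) and -0.29 ± 0.08 (SE; adjusted p = 0.0152).

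Uqcrb, a small subunit near the quinone pocket, passed in air and not in benzene, at -1.08 ± 0.30 (SE; adjusted p = 0.0127) and -0.47 ± 0.30 (SE; adjusted p = 0.341). Sham/Air replicate 1 was at 3069 CPM, and the next highest library of the group was at 646 CPM. Without it, Uqcrb changed by -0.35 in air (adjusted p = 0.00223) and -0.47 in benzene (adjusted p = 3.7e-05). Uqcrh, the hinge subunit, was at -0.32 ± 0.11 (SE; adjusted p = 0.0587) in air and -0.33 ± 0.11 (SE; adjusted p = 0.0498) in benzene. The Rieske iron-sulphur subunit Uqcrfs1 and the core subunit Uqcrc1 did not pass with all libraries, at -0.17 and -0.23 in air and -0.28 and -0.36 in benzene, and both passed in both exposures without Sham/Air replicate 1, at -0.30 and -0.41 in air.

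In complex IV, 4 of 18 members were called in air and 7 in benzene. Cox4i1, the ubiquitous form of the regulatory subunit 4 and one of the 3 most abundant members per length (2487 CPM per kilobase, after Atp5b at 3052 and before Cox6c at 2475), ranged from 1823 to 2276 CPM with a median of 2125 CPM in Sham/Air and from 1534 to 1837 CPM with a median of 1563 CPM in TAC/Air. It ranged from 1777 to 2192 CPM with a median of 2179.9 CPM in Sham/Benzene and from 1503 to 1644 CPM with a median of 1579 CPM in TAC/Benzene. The groups were apart in benzene and overlapped in air, with fold changes of -0.35 ± 0.07 (SE; adjusted p = 0.00131) in air and -0.41 ± 0.07 (SE; adjusted p = 0.000232) in benzene. With offsets for GC content and length, Cox4i1 changed by -0.688 ± 0.235 (SE) in air and -0.43 ± 0.234 (SE) in benzene, and passed in air only.

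Cox7b and Cox6c, small subunits around the catalytic core, fell in both exposures. Cox7b changed by -0.54 ± 0.12 (SE; adjusted p = 0.00321) in air and -0.41 ± 0.12 (SE; adjusted p = 0.0218) in benzene. Cox6c changed by -0.53 ± 0.14 (SE; adjusted p = 0.00813) in air, with Sham/Air replicate 1 at 2633 CPM against at most 1471 CPM in the others, and by -0.45 ± 0.14 (SE; adjusted p = 0.0227) in benzene; without that library the change in air was -0.31. Cox7c passed in benzene at -0.53 ± 0.11 (SE; adjusted p = 0.000665) and did not pass in air at -0.25 ± 0.11 (SE; adjusted p = 0.115); without Sham/Air replicate 1 it passed in air as well, at -0.33 (adjusted p = 0.00576). Ndufa4 did not pass, at -0.35 in air and -0.23 in benzene. Cox7a2l, which is known for joining complexes III and IV into supercomplexes, was at 0.06 and -0.05 and did not pass, and was at 0.002 in air without that library.

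Several complex IV subunits have a heart and skeletal muscle gene and a ubiquitous gene, and their ratio within a library does not depend on how libraries are scaled. It can still follow other differences between libraries. Cox6b2, described as the testis form of Cox6b1, had the largest log2 fold changes of all members at the lowest level, 2.17 CPM per kilobase. It ranged from 1.14 to 2.4 CPM with a median of 1.65 CPM in Sham/Air and from 0.234 to 0.998 CPM with a median of 0.456 CPM in TAC/Air. In Sham/Benzene it ranged from 1.35 to 2.53 CPM with a median of 1.94 CPM, and in TAC/Benzene from 0.175 to 1.16 CPM with a median of 0.69 CPM. The groups did not overlap, and the fold changes were -1.60 ± 0.36 (SE; adjusted p = 0.00214) in air and -1.49 ± 0.34 (SE; adjusted p = 0.00227) in benzene, from a mean of 12.92 counts per library.

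The log2 ratio of Cox6b2 to Cox6b1 went from -8.43 ± 0.24 (SD, n = 6) in Sham/Air to -9.97 ± 0.53 in TAC/Air, and from -8.40 ± 0.60 in Sham/Benzene to -10.08 ± 1.11 in TAC/Benzene. The muscle form Cox6a2 over the ubiquitous Cox6a1 had a log2 ratio of 3.73 ± 0.29 in Sham/Air and 3.42 ± 0.25 in TAC/Air; in benzene it was 3.87 ± 0.18 in sham and 3.34 ± 0.15 in TAC. Without Sham/Air replicate 1, at 3.17, the Sham/Air mean was 3.84 ± 0.10. TAC/Air replicate 4, at 3.90, lay among the sham libraries, and the other 5 TAC/Air libraries were at 3.48 or below; in benzene the ranges touched, at 3.60 or above in sham and 3.62 or below in TAC. As single genes, Cox6a2 was at -0.27 in air and -0.41 in benzene and Cox6a1 at 0.13 and 0.14, and none of these passed. In air they were at -0.45 and -0.01 without Sham/Air replicate 1 and did not pass.

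Cox7a1, the muscle form of subunit 7a, passed in benzene and not in air. It ranged from 633 to 1008 CPM with a median of 807 CPM in Sham/Benzene and from 309.6 to 538 CPM with a median of 399.9 CPM in TAC/Benzene. The air ranges were from 122 to 962 CPM with a median of 798 CPM in sham and from 329 to 689 CPM with a median of 426 CPM in TAC. The fold changes were -0.60 ± 0.29 (SE; adjusted p = 0.181) in air and -0.97 ± 0.29 (SE; adjusted p = 0.0215) in benzene, and without Sham/Air replicate 1, which was at 122 CPM, the change in air was -0.82 (adjusted p = 0.00133). Its ubiquitous partner Cox7a2 was at -0.30 ± 0.12 (SE; adjusted p = 0.0723) in air and -0.52 ± 0.12 (SE; adjusted p = 0.0018) in benzene, and passed in air without that library, at -0.33 (adjusted p = 0.0301). The log2 ratio of Cox7a1 to Cox7a2 was 0.79 ± 0.40 in Sham/Benzene and 0.32 ± 0.43 in TAC/Benzene, and 0.85 ± 0.39 (n = 5, without replicate 1) and 0.32 ± 0.58 in air. The ranges overlapped, and the libraries of Sham/Air, Sham/Benzene and TAC/Air split by replicate number. In Sham/Benzene the ratio was 0.385 to 0.501 in replicates 1 to 3 and 1.02 to 1.264 in replicates 4 to 6. In TAC/Air it was 0.732 to 0.937 in replicates 1 to 3 and -0.527 to 0.01 in replicates 4 to 6. TAC/Benzene did not split this way, as replicate 5, at 0.493, lay above replicate 3, at 0.368.

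The remaining pairs overlapped between sham and TAC in most or all exposures. Cox8b to Cox8a, a muscle and a ubiquitous form, was at 2.24 ± 0.41 in Sham/Air, 1.63 ± 0.63 in TAC/Air, 1.99 ± 0.32 in Sham/Benzene and 1.76 ± 0.38 in TAC/Benzene. Cox4i2, known as the lung form of Cox4i1, was among the lowest members at 15.4 CPM per kilobase, with log2 ratios to Cox4i1 of -7.60, -7.29, -7.46 and -7.16 in the same order. Ndufa4l2, known as a hypoxia-induced relative of Ndufa4, had log2 ratios to it of -5.81, -5.20, -5.59 and -5.16, and -5.56 in Sham/Air without replicate 1. As single genes Cox8a, Cox8b, Cox4i2, Cox6b1 and Ndufa4l2 did not pass in either exposure, with or without Sham/Air replicate 1. Cox8a turned from 0.03 to -0.19 in air without it, and Cox8b went from -0.32 to -0.52, Cox4i2 from -0.09 to -0.18, Cox6b1 from -0.19 to -0.30 and Ndufa4l2 from 0.21 to 0.09.

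**Figure D4:**
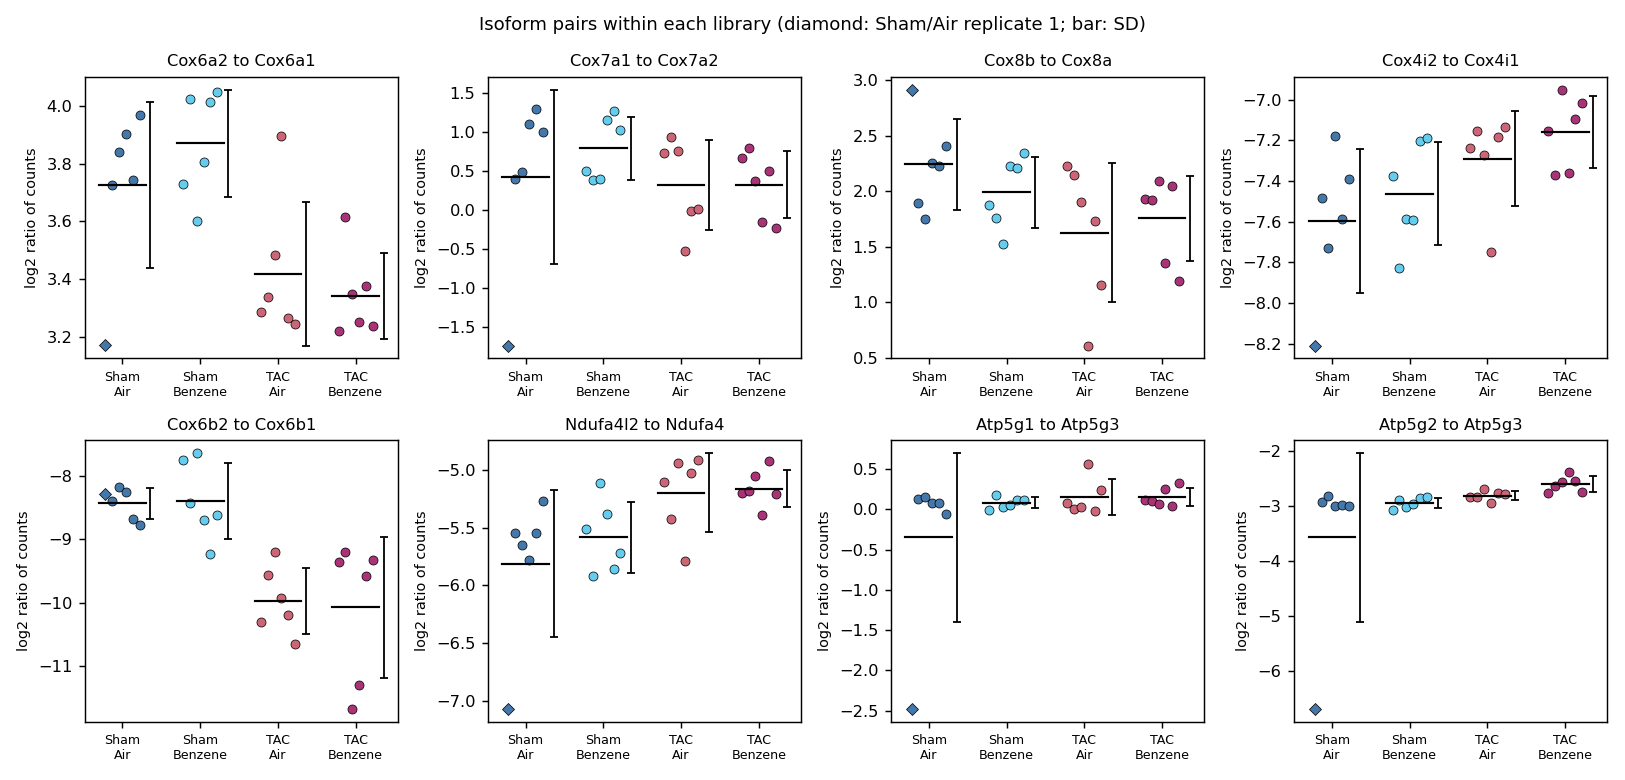
Each panel is 1 pair of genes for the same subunit; the vertical axis is the log2 ratio of their counts within a library, points are libraries, the diamond is Sham/Air replicate 1, lines are means and bars are 1 SD. Cox6b2 to Cox6b1 lies at -9.21 or below in TAC/Air and at -8.77 or above in Sham/Air.

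In complex V the calls took in the catalytic head, the central stalk and the peripheral stalk. Atp5b encodes the catalytic beta subunit. It ranged from 4535 to 7009 CPM with a median of 6727 CPM in Sham/Air and from 5018 to 5334 CPM with a median of 5109.5 CPM in TAC/Air. In benzene it ranged from 6154 to 6988 CPM with a median of 6891 CPM in sham and from 5015 to 5308 CPM with a median of 5088 CPM in TAC. The benzene groups were apart, and in air Sham/Air replicate 1, at 4535 CPM, lay below TAC/Air while the next lowest was at 6442 CPM. The fold changes were -0.31 ± 0.08 (SE; adjusted p = 0.00789) in air and -0.40 ± 0.08 (SE; adjusted p = 0.000732) in benzene, and -0.39 in air without that library.

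Atp5a1, the alpha subunit that alternates with beta, changed by -0.35 ± 0.08 (SE; adjusted p = 0.00227) in air and -0.36 ± 0.08 (SE; adjusted p = 0.00153) in benzene. Atp5c1, the gamma subunit of the central stalk, changed by -0.44 ± 0.08 (SE; adjusted p = 0.000257) and -0.30 ± 0.08 (SE; adjusted p = 0.00885). Atp5pb, the b subunit of the peripheral stalk, changed by -0.49 ± 0.10 (SE; adjusted p = 0.000916) and -0.34 ± 0.10 (SE; adjusted p = 0.0214). Neither Atp5c1 nor Atp5pb overlapped between sham and TAC in either exposure. Atp5h and Atp5j, the d and F6 subunits of the peripheral stalk, were raised in Sham/Air replicate 1; Atp5h passed in both exposures, and Atp5j passed in air at -0.78 ± 0.19 (SE; adjusted p = 0.00392) and not in benzene at -0.45 ± 0.18 (SE; adjusted p = 0.11), although its groups did not overlap in either. Without that library the changes in air were smaller, at -0.41 for Atp5j (adjusted p = 1.05e-05) and -0.34 for Atp5h (adjusted p = 0.00822), and Atp5j passed in benzene too, at -0.45 (adjusted p = 1.13e-06).

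The 3 genes of the proton-carrying c subunit encode the same mature protein behind different import sequences. Atp5g1 was at -0.15 in air and -0.29 in benzene, Atp5g2 at -0.04 and -0.02 and Atp5g3 at -0.36 and -0.35, and none passed. In air they were at -0.38, -0.28 and -0.43 without Sham/Air replicate 1 and again did not pass. Atp5g2 ranged from 9.66 to 209 CPM with a median of 172 CPM in Sham/Air, where replicate 1 was at 9.66 CPM and the next lowest at 148 CPM. Its log2 ratio to Atp5g3 was -2.94 ± 0.08 (n = 5) in Sham/Air without replicate 1, -2.81 ± 0.09 (n = 6) in TAC/Air, -2.94 ± 0.09 in Sham/Benzene and -2.60 ± 0.14 in TAC/Benzene. The ranges in benzene, -3.08 to -2.84 in sham and -2.75 to -2.37 in TAC, did not overlap, and this difference was not tested. Of the smaller subunits, Atp5l (0.10 and -0.09), Atp5d (-0.17 and -0.16), Atp5e (-0.24 and -0.35) and Atp5k (-0.43 and -0.26) did not pass. Leaving out Sham/Air replicate 1 gave changes in air of -0.06 for Atp5l, which turned direction, -0.39 for Atp5d and -0.43 for Atp5e, and these did not pass.

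**Figure D5:**
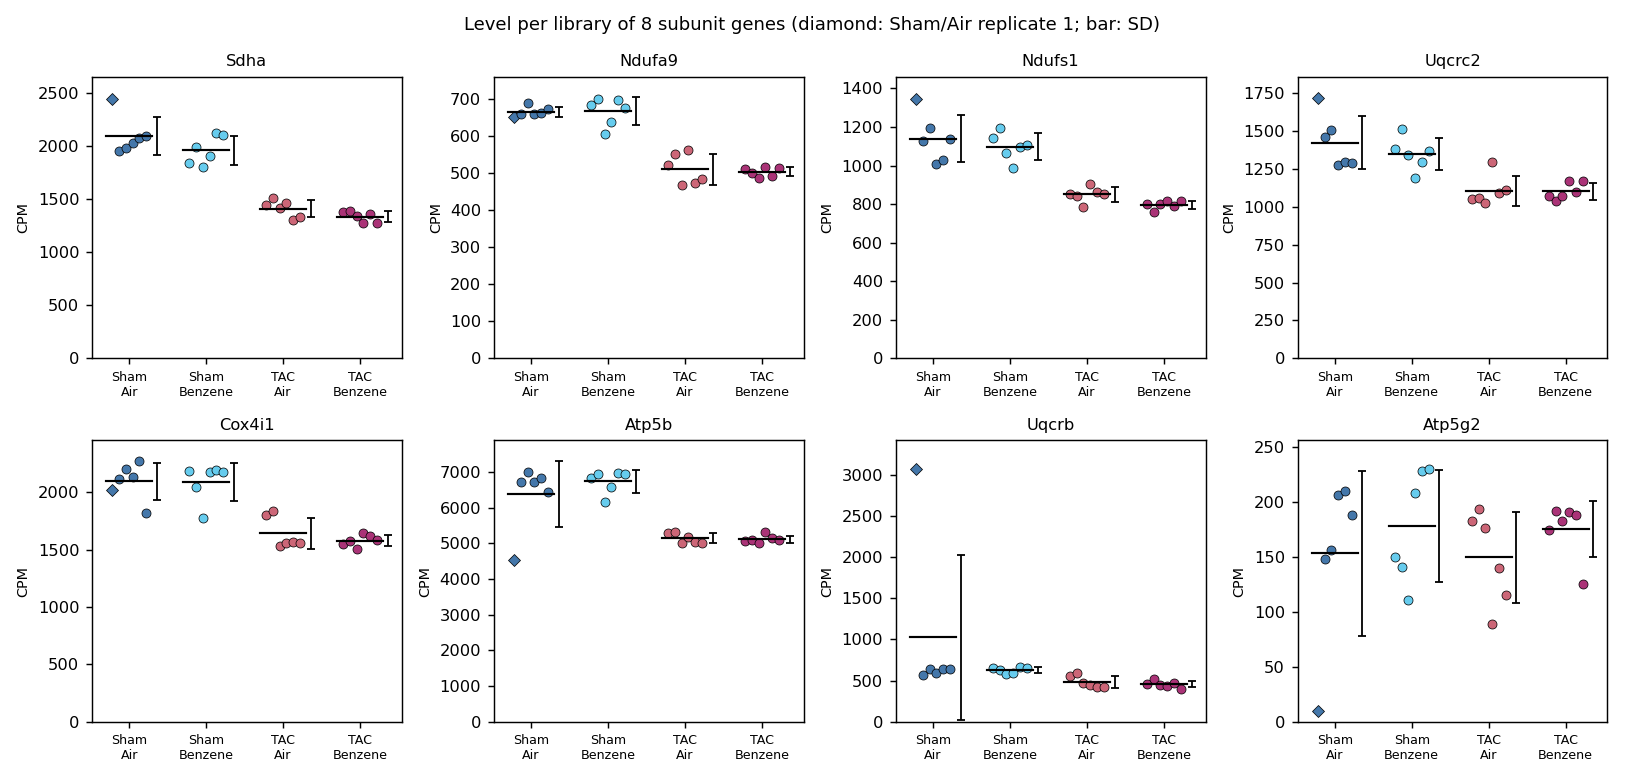
Each panel is 1 gene; points are libraries, the vertical axis is CPM from 0, the diamond is Sham/Air replicate 1, lines are means and bars are 1 SD. Sdha lies at or above 1797 CPM in all 12 sham libraries and at or below 1504 CPM in all 12 TAC libraries, while Uqcrb and Atp5g2 have Sham/Air replicate 1 far from the other 5.

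The TAC comparisons in the 2 exposures set different libraries against each other but take the spread from 1 fit over all 24 libraries, so their calls are not independent. Of the members called lower, 24 of 82 were called in both, where 4.75% of all genes were. This is 77.4% of the air list and 72.7% of the benzene list. Among all genes, 644 were called lower in both, out of 998 in air and 1081 in benzene. The 7 members called in air alone were Ndufa1, Ndufa6, Ndufc1, Ndufv2, Uqcrb, Atp5j and Atp5md. In Sham/Air replicate 1 each of these stood at 1.44-fold to 4.97-fold of the mean of the other 5. The 9 called in benzene alone, Ndufa13, Ndufb6, Ndufb9, Uqcrh, Cox7a1, Cox7a2, Cox7c, Atp5j2 and Atp5o, stood there at 0.15-fold to 1.13-fold. Without that library 43 of 82 were called in both, where 7.84% of all genes were, 87.8% of the air list and 89.6% of the benzene list. Among all genes, 1071 were then lower in both, out of 1517 in air and 1803 in benzene. In the interaction, which tests whether the TAC response differed between exposures, 0 of 82 members passed, where 0.0663% of all genes were called higher and 0.103% lower, and 0 had an unadjusted p under 0.05. DESeq2 also called 0. The interaction estimates ran from -0.38 (Cox7a1) to 0.61 (Uqcrb), with a median standard error of 0.22; without Sham/Air replicate 1 they ran from -0.20 (Cox7c) to 0.45 (Ndufs5). The 5 members with the smallest p, at an adjusted p of 1, were Cox7c (-0.28 ± 0.15), Atp5j2 (-0.27 ± 0.16), Ndufv2 (0.35 ± 0.22), Sdhc (-0.20 ± 0.13) and Uqcrb (0.61 ± 0.42). In the same order they were at -0.20, -0.18, 0.07, -0.11 and -0.12 without Sham/Air replicate 1.

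The next question is what benzene did on its own and under pressure overload. No member was called in Sham/Benzene against Sham/Air or in TAC/Benzene against TAC/Air by edgeR's test or by DESeq2. In sham hearts 0.00737% of all genes were called higher and 0.0147% lower, and 2 members, Uqcrb and Ndufv2, had an unadjusted p under 0.05, both lower. Uqcrb was at -0.70 ± 0.30 (SE; adjusted p = 0.819) and Ndufv2 at -0.35 ± 0.16 (adjusted p = 0.819). Without Sham/Air replicate 1 they were at 0.03 and -0.06, and the members ran from -0.17 (Atp5k) to 0.06 (Atp5h) with a median of -0.013. The median with all libraries was 0.07, and the complex sums differed between the sham groups by -1.83% (complex III) to 1.46% (complex IV). The next smallest p-values were of Atp5j (-0.37), Atp5c1 (-0.14) and Cox6c (-0.20), which were at 0.003, -0.06 and 0.02 without Sham/Air replicate 1.

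Under TAC, benzene gave a median member change of 0.004, where 0.295% of all genes were called higher and 0.287% lower, and 0 members had an unadjusted p under 0.05. The members ran from -0.17 (Cox7a1) to 0.40 (Ndufs5). Those with the smallest p, at an adjusted p of 1, were Cox7c (-0.16 ± 0.11), Cox7a2 (-0.16 ± 0.11), Ndufs4 (-0.14 ± 0.11), Sdhc (-0.12 ± 0.09) and Ndufs1 (-0.10 ± 0.07). The summed complex II differed by -4.44% between TAC/Benzene and TAC/Air, and the other sums were between -1.81% and 0.7%; all ranges overlapped. The median standard error of a member's fold change was 0.158.

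The spread within groups ran along whole libraries. Sham/Benzene replicate 3 held the lowest level of its group in 68 of 82 members, TAC/Air replicate 2 the highest in 57, and TAC/Benzene replicate 6 the lowest in 48. Across genes, the level in a library relative to the mean had a rank correlation with transcript length of 0.44 in the first of these, -0.42 in the second and 0.24 in the third. The rank correlation with GC content split the groups. It was -0.77 to -0.17 in replicates 1 to 3 of both sham groups and 4 to 6 of TAC/Air. In the other libraries of these 3 groups it was 0.35 to 0.62. In TAC/Benzene it was 0.43 to 0.57 in replicates 1, 2, 3 and 5, -0.01 in replicate 4 and -0.23 in replicate 6. The part of this split in the spread of the members was not tested. In air 14 of 29 members under 50% GC were called lower, 12 of 29 from 50 to 55% and 5 of 24 over 55%, with median standard errors of 0.125, 0.178 and 0.191; without Sham/Air replicate 1 the counts were 16, 20 and 13. With an offset for each library's trend in GC content and length, the counts were 15, 17 and 12, and 44 of 82 in all, against 16.2% of all genes. In benzene the offsets gave 38 of 82 lower, against 15% of all genes, and 0 were higher in either exposure. Of the calls without offsets, 30 of 31 were kept in air, where Ndufc1 no longer passed. In benzene 29 of 33 were kept, and Cox4i1, Cox7b, Atp5h and Ndufs8 no longer passed.

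Genes around the respiratory chain were counted from lists. Each count with all libraries is to be read against the 7.35% of all genes called lower in air and 7.97% in benzene (8.81% and 8.67% higher). Counts without Sham/Air replicate 1 are to be read against 11.1% and 13.2% lower, and 1652 and 1864 of 13665 genes higher. No test compares the lists with each other or with the members. Of 14 citric acid cycle genes, 10 were lower in air and 7 in benzene, with 0 higher and medians of -0.35 and -0.38; Suclg2 (-0.48 and -0.38) and Suclg1 (-0.42 and -0.53), subunits of succinyl-CoA ligase, and Dlst (-0.35 and -0.24), a subunit of the oxoglutarate dehydrogenase complex, had the smallest p. Without Sham/Air replicate 1 all 14 were lower in both. Of 12 carriers and electron-transfer genes, 7 and 8 were lower and 0 higher. Without that library 10 were lower in each, and 1, Slc25a5, was higher in benzene at 0.18 (adjusted p = 0.0121 by edgeR's test). Those lower included Etfa (-0.48 and -0.57) and Etfdh (-0.46 and -0.44), which bring electrons from fatty acid oxidation to the quinone pool. Another was the phosphate carrier Slc25a3 (-0.35 and -0.37). Of 4 subunits or partners outside the name rule, cytochrome c (Cycs) was at -0.51 and -0.35 and the acyl carrier subunit Ndufab1 at -0.38 and -0.24, and both passed in air and not in benzene, while the interaction for each had an adjusted p of 0.9999. Both passed in both exposures without Sham/Air replicate 1. Cyc1 and Atpif1 did not pass, and without that library Cyc1 passed in air at -0.38 (adjusted p = 0.00866).

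Of 47 assembly factors, 3 were lower in air and 4 in benzene, shares close to those of all genes, and without Sham/Air replicate 1 the counts were 7 and 11, against 11.1% and 13.2% of all genes. In both exposures 1 was higher: Cox19, which handles copper for complex IV, rose from 39.3 CPM in Sham/Air to 58.5 CPM in TAC/Air and from 41.3 CPM in Sham/Benzene to 71.9 CPM in TAC/Benzene. Its fold changes were 0.57 ± 0.12 (adjusted p = 0.00122) and 0.80 ± 0.12 (adjusted p = 1.6e-05). Uqcc1, a complex III assembly factor, was lower in both (-0.27 and -0.33). The median of the list was -0.14 in air and -0.145 in benzene.

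Of 11 regulators of these genes, 2 were lower in each exposure and 0 higher, and without Sham/Air replicate 1 the counts were 3 and 4. Ppargc1a, the coactivator of mitochondrial gene expression, fell from 175 to 106 CPM in air (-0.71 ± 0.19; adjusted p = 0.00889) and from 172 to 95.2 CPM in benzene (-0.85 ± 0.19; adjusted p = 0.00164). Without that library its change in air was -0.44 (adjusted p = 0.0129). Ppara, the fatty-acid-sensing receptor, changed by -0.42 and -0.43. Of 9 genes for maintaining and reading mitochondrial DNA, 0 passed in either exposure by edgeR's test; without Sham/Air replicate 1, 1 was lower in air, and 2 were lower and 1 higher in benzene. Of 78 mitochondrial ribosome genes, 16 were lower in air and 8 in benzene, with 0 higher and medians of -0.16 and -0.16; Mrpl39 (-0.60 and -0.34), Mrps31 (-0.57 and -0.29) and Mrpl42 (-1.11 and -0.39) had the smallest p. The counts without Sham/Air replicate 1 were 20 and 21, and Mrpl42 was at -0.63 in air. Of 95 genes named Rpl or Rps with a digit, which include a few kinases and relatives besides the cytosolic ribosome, 4 were lower and 2 higher in air and 3 lower and 0 higher in benzene, with medians of -0.06 and -0.04; these shares lie below those of all genes. Without Sham/Air replicate 1, 6 of the 95 were lower and 2 higher in each exposure. The called genes with the smallest p were Rpl3l (-0.79 and -0.77), a muscle form of Rpl3, Rps6ka5 (-0.65 and -0.86), a kinase, and Rpl3 (0.59 and 0.31).

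Markers of cell types moved with the surgery as well. Markers called lower are to be read against 7.35% of all genes in air and 7.97% in benzene. Those called higher are to be read against 8.81% and 8.67%. Without Sham/Air replicate 1 the shares called lower were 11.1% and 13.2%, and 1652 and 1864 of 13665 genes were called higher. The summed level of 10 cardiomyocyte markers ran from 83227 to 111310 CPM in Sham/Air and from 57876 to 69118 CPM in TAC/Air, and from 75993 to 91427 CPM in Sham/Benzene and 61424 to 68310 CPM in TAC/Benzene, and 6 of 10 and 5 of 10 were lower. Among them were Myh6 (-0.88 and -0.62) and Tnni3 (-0.70 and -0.57). Without Sham/Air replicate 1, 7 of the 10 were lower in air and 6 in benzene. The sum of 7 fibroblast markers ran from 1389 to 3167 CPM in Sham/Air and 2510 to 3100 CPM in TAC/Air, and from 1439 to 1780 CPM in Sham/Benzene and 2206 to 2575 CPM in TAC/Benzene; 4 and 3 of 7 were higher. Without Sham/Air replicate 1, 5 of the 7 fibroblast markers were higher in each exposure. Of 7 macrophage markers 2 were higher in air, and in benzene 1 was lower (3 without Sham/Air replicate 1). Endothelial markers stayed between 1136 and 1396 CPM in all groups. Of 7 tested, 0 passed in air and 1 was higher in benzene (2 without Sham/Air replicate 1). Of 7 smooth muscle and pericyte markers, 1 was higher in air and 2 were lower in each exposure, with 4 lower and 1 higher in benzene without that library. Lymphocyte markers summed to at most 5.26 CPM and skeletal muscle markers to at most 3.11 CPM, and adipocyte markers to at most 41.6 CPM. The 3 atrial markers summed to 30.6 to 216 CPM in Sham/Benzene and 28.8 to 44.3 CPM in TAC/Benzene, and all 3 were lower there. The part of these shifts in the members' levels was not tested, and in whole tissue fewer cells of a type and less RNA per cell cannot be told apart.

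For 67 of the 82 members a promoter entry, from 250 bases before to 50 after the start, was found among the RefSeq entries searched. The search did not cover every chromosome, so some of the other members may have an entry that was not searched. NRF1's element, GCGCA, any base and GCGC on either strand, was in 17 of these 67 members (25.4%) and in 5.19% of all genes searched. The YY1 element, AAGATGGC on either strand, was in 10 members (14.9%) and in 3.19% of all genes. For the element of oestrogen-related receptors, TNAAGGTCA, the values were 3 members (4.5%) and 1.43%, for the ETS element read by GABP, CCGGAAGTG, 2 members (3.0%) and 2.25%, and for a TATA box, TATAAA, 7 members (10.4%) and 15.67%. Ndufb4, Atp5g3 and Sdhd carried the element of oestrogen-related receptors, Ndufs3 and Uqcrh the ETS element, and Atp5l, Atp5md and Cox8b were among those with the TATA box. Of the 17 members with NRF1's element, 7 were lower in air and 7 in benzene. Of the 10 with the YY1 element, 7 and 6 were. Of all 82 members 31 and 33 were lower, and of all genes 7.35% and 7.97%. Without Sham/Air replicate 1 the counts were 10 and 9 for NRF1's element and 7 and 9 for the YY1 element. In that fit 49 and 48 of all 82 members were lower, and 11.1% and 13.2% of all genes. Whether members with an element differ from the others was not tested.

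YY1's element lay at 22 to 38 bases after the start in 8 of its 10 members, on the strand of the gene, and its letters include ATG. In Atp5j it lay at -88, and in Atp5pb at -3 on the opposite strand. Short stretches of the members with the element that were called lower in both exposures, and of Ndufs7, which did not pass with all libraries, are shown to compare its place, with the element in capitals. Ndufs7 passed in both exposures without Sham/Air replicate 1, at -0.43 (adjusted p = 0.00205) and -0.26 (adjusted p = 0.0428). They are Ndufa9 at chr6:126849097-126849126, Ndufs4 at chr13:114388045-114388070, Ndufs6 at chr13:73328433-73328460, Ndufb8 at chr19:44555393-44555415, Atp5pb at chr3:105959248-105959277 (all minus strand) and Ndufs7 at chr10:80249462-80249491 (plus strand), on GRCm38.p6.
Ndufa9: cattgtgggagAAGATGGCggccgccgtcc
Ndufs4: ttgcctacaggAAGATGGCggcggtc
Ndufs6: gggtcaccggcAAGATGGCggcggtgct
Ndufb8: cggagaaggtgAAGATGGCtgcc
Atp5pb: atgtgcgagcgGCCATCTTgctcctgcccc
Ndufs7: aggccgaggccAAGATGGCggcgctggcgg

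NRF1's element was found in members that fell and in members that did not pass. Atp5g2, at chr15:102671065-102671104 on the minus strand, and Ndufa11, at chr17:56717687-56717726 on the plus strand, did not pass and hold 1 match each. Their fold changes in air were -0.04 and 0.02, and -0.28 and -0.08 without Sham/Air replicate 1. Ndufs6, at chr13:73328483-73328513 on the minus strand, fell in both exposures and holds 1 match on the opposite strand. The stretches are set beside each other for this reason. A match describes letters in a window of this table and is not a measurement of binding.
Atp5g2: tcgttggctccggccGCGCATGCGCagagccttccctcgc
Ndufa11: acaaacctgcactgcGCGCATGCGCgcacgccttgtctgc
Ndufs6: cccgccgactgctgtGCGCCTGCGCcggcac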

How the data were processed

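RNA-seq libraries of mouse left ventricle and septum were grouped by surgery and exposure from the sample titles, 6 per group. The authors deposited raw read counts for each gene symbol, not normalized. The mm9 build, STAR, DESeq2 and FastQC 0.11.9 stand in the submitters' processing notes. Which program counted the reads, on which annotation and with which strand setting, is not given in the sources used here. The labels do not tie a library to a named mouse, so p-values measure the spread between these samples. No 2 libraries of a group agreed within sampling noise (lowest chi-square per degree of freedom 1.81).

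Genes were kept by edgeR 4.0.16 in R 4.3.3 (minimum count 10, minimum total 15), which left 13571 and left out 0.0747% of counts. A quasi-likelihood fit with TMM scaling used all 24 libraries and 1 coefficient per group, and p-values were adjusted by Benjamini-Hochberg over all genes tested. The standard error was the size of the log2 fold change over the square root of F; CPM used TMM-scaled library sizes. GC content and length came from GENCODE vM21 for 98% of symbols, using the shortest principal transcript. Offsets were loess trends (span 0.5) on genes averaging 50 counts or more. The alternatives were DESeq2 1.42.0, limma-voom (limma 3.58.1) with quality weights, other size factors and filters, the 2 groups alone, a replicate block, offsets, and each library left out. The fit was tested on simulated counts. These held no trend in GC content or length and no outlying library, so that test does not cover such features.

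The members, gene lists and tests were chosen with earlier results of these data known. Named genes are, in each complex, the 3 called members with the smallest p in either TAC comparison, all isoform pairs, the 5 members with the smallest p in each benzene comparison and the interaction, the 3 highest and lowest per kilobase, up to 3 called genes per list and up to 3 per motif; others, including the subunits given with their role, were chosen after their values were seen.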

Additional observations from a re-analysis of the deposited data

Results flagged for a closer look

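The check covered the named members, the isoform pairs, the summed levels of the complexes and the members' share of a library's counts. In all, 204 groups of 6 libraries were checked. It looked for a library whose gap to its nearest neighbour took up an unusually large part of the group's range (Dixon's criterion at 95%). Of these groups 29 stood out, where chance alone gives about 1 in 20, and none was of a complex sum or the share. Sham/Air replicate 1 accounted for most of them.

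Levels in Sham/Air replicate 1 stood below the rest of the group for Atp5a1 (4327 CPM, nearest 5845 CPM), Atp5b (4535 CPM, nearest 6442 CPM), Atp5g1 (179.3 CPM, nearest 1215 CPM), Atp5g2 (9.66 CPM, nearest 148 CPM), Cox7a1 (122.4 CPM, nearest 657 CPM), Ndufs3 (312.8 CPM, nearest 381 CPM), Sdhb (722.8 CPM, nearest 1097 CPM) and Sdhc (360.8 CPM, nearest 541.4 CPM). They stood above it for Atp5c1 (2277 CPM, nearest 1718 CPM), Atp5j (2366 CPM, nearest 920.1 CPM), Atp5pb (2202 CPM, nearest 1447 CPM), Cox6c (2633 CPM, nearest 1471 CPM), Ndufv2 (1687 CPM, nearest 774.6 CPM), Sdha (2437 CPM, nearest 2095 CPM) and Uqcrb (3069 CPM, nearest 645.7 CPM).

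In the same library the log2 ratios of Cox6a2 to Cox6a1 (3.171, nearest 3.728), Cox7a1 to Cox7a2 (-1.737, nearest 0.396), Ndufa4l2 to Ndufa4 (-7.068, nearest -5.783), Atp5g1 to Atp5g3 (-2.48, nearest -0.059) and Atp5g2 to Atp5g3 (-6.694, nearest -2.994) were below the other 5.

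Among the other libraries, TAC/Air replicate 4 was high in Cox7a2 (474.2 CPM, nearest 359.8 CPM), in Uqcrc2 (1293 CPM, nearest 1110 CPM) and in the log2 ratio of Cox6a2 to Cox6a1 (3.897, nearest 3.483), and low in that of Cox4i2 to Cox4i1 (-7.751, nearest -7.274). TAC/Benzene replicate 6 was low in Atp5g2 (125.5 CPM, nearest 174.3 CPM), Atp5pb (1049 CPM, nearest 1129 CPM) and Ndufa4 (667.9 CPM, nearest 790.6 CPM). TAC/Benzene replicate 4 was high in Atp5c1 (1414 CPM, nearest 1308 CPM), and Sham/Benzene replicate 3 was low in Cox4i1 (1777 CPM, nearest 2047 CPM).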

How the results depend on the processing

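No member was called higher after TAC, or called in a benzene comparison or the interaction, under any alternative run. The number lower after TAC in air, 31, was 63 with limma-voom, where 13.3% of all genes were lower. With only the 2 groups compared it was 16, where 3.91% of all genes were. With offsets and without Sham/Air replicate 1 it was 50, where 18.1% of all genes were. With 1 library left out it was 26 to 49, where 6.22% to 11.1% of all genes were, the highest without Sham/Air replicate 1. In benzene, 33, it was 67 with limma-voom, where 15.9% of all genes were lower, and 51 with only the 2 groups, where 12.8% were. It was 51 with offsets and without Sham/Air replicate 1, where 20% of all genes were. With 1 library left out it was 25 to 48, where 6.69% to 13.2% of all genes were. The replicate block gave 28 in air, against 5.91% of all genes, and 29 in benzene, against 6.73%. Same-numbered libraries deviated together at a correlation over 0.1 in 0 of 6 pairs for TAC in air and 1 for TAC in benzene. The same held in 4 pairs for benzene in sham and 5 for benzene under TAC. In the same order, 0, 1, 3 and 5 of 12 libraries correlated best with their own number. As not every pair did so in any comparison, the numbers were not taken as pairs. The cause of these shifts was not tested.

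Directions that turned belonged to members that did not pass. After TAC in air, Ndufa11 was at -0.115 with limma-voom, -0.165 with offsets, -0.147 with offsets and the replicate block, and -0.077 to 0.073 with 1 library left out, the lowest without Sham/Air replicate 1. Atp5l was at -0.115 with limma-voom and -0.064 to 0.166 with 1 left out, again lowest without that library, and Cox7a2l at -0.042 with limma-voom. Cox6a1 was at -0.054 with limma-voom, -0.015 with offsets, -0.024 with offsets and the replicate block, and -0.012 to 0.243 with 1 library left out. Cox8a was at -0.233 with limma-voom, -0.072 with offsets without Sham/Air replicate 1, and -0.19 to 0.171 with 1 left out. Ndufs5 was at -0.103 with limma-voom and -0.041 to 0.352 with 1 left out. Atp5g2 was at 0.06 with the replicate block, 0.013 with offsets and the block, and -0.283 to 0.066 with 1 left out; Cox4i2 ran from -0.179 to 0.001 with 1 left out. In benzene, Atp5g2 was at 0.001 with the replicate block, 0.012 with offsets, 0.01 with offsets without Sham/Air replicate 1, 0.015 with offsets and the block, and -0.133 to 0.062 with 1 left out. Cox8a there was at 0.022, 0.017, 0.017 and 0.021, and -0.119 to 0.079. Atp5l there was at 0.023 with offsets and 0.024 with offsets without Sham/Air replicate 1, and Atp5k ran from -0.482 to 0.005 with 1 left out.

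For Sham/Benzene against Sham/Air, limma-voom gave Atp5j 0.019, Cox6c 0.055 and Uqcrb 0.031; offsets without Sham/Air replicate 1 gave Atp5j 0.021 and Cox6c 0.029. With 1 library left out they ran from -0.435 to 0.003, -0.256 to 0.02 and -0.823 to 0.027. The interaction of Uqcrb was -0.069 with limma-voom, -0.041 with offsets without Sham/Air replicate 1, and -0.123 to 0.728 with 1 left out. Sham/Air replicate 1 holds fewer counts than any other library, and Cox6b2, at a mean of 12.92 counts, has the fewest of the members.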
